A study of Mus musculus with 86 samples.

Results

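Transcripts of 7 genes for the reception and the making of gonadal steroids were followed in the brains of wild house mice (Mus musculus), namely the oestrogen receptor genes Esr1 and Esr2, the progesterone receptor gene Pgr, the enzyme genes Cyp19a1 and Srd5a1, the membrane oestrogen receptor gene Gper1 and the oestrogen-regulated gene Greb1. They were chosen by name, as the rows whose Ensembl identifiers carry these symbols in GENCODE vM21, and they are 7 of the 35275 genes in the count table. RNA-seq libraries came from punches of the prefrontal cortex, the hypothalamus and the hippocampus of free-living barn mice sampled outside the breeding season, at both ends of the range of social network size, that is, the number of partners an animal met in nest boxes per day. There were 86 libraries of 29 animals, with 7 females of large, 7 females of small, 7 males of large and 8 males of small social network size in the prefrontal cortex and in the hippocampus. The hypothalamus had 7 animals in each of these 4 groups, since RNA extraction failed for 1 male with a small network size. By the study's methods, RNA integrity was lowest in the hypothalamus sample of animal 19, a female with a large network size. That library was kept here. No treatment was given, the animals of all groups were wild-type free-ranging mice, and the labels give neither age nor stage of the oestrous cycle. The methods of the study give mean estimated ages by group, lowest in males with small network sizes. They report no significant difference in age by sex or network size. Age was not part of the fits used here. Each library is a bulk punch that holds several nuclei and cell types.

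Gonadal steroids act on the brain mainly through nuclear receptors, which bind DNA as pairs and switch target genes on or off. Aromatase, the product of Cyp19a1, turns androgens into oestrogens inside the brain, and 5α-reductase type 1, the product of Srd5a1, converts testosterone and progesterone into reduced steroids that act on the androgen receptor or, after a further step, on GABA receptors. In rodents, oestrogen receptor α (Esr1) is densest in the preoptic area, the ventromedial and arcuate nuclei of the hypothalamus and the adjoining limbic nuclei, which control sexual, aggressive and parental behaviour. Greb1 is a chromatin-bound cofactor of oestrogen receptor α that is itself switched on by oestrogens in breast and reproductive tissue.

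The labels of the libraries were checked against marker genes. Xist, the RNA of the inactive X chromosome, was at 566.4 CPM (counts scaled to 1000000 per library, with TMM factors for composition) or more in libraries of females and at 3.67 CPM or less in libraries of males, and 4 Y-linked genes summed to at most 1.02 CPM in females and at least 155.5 CPM in males. The 9 hypothalamus markers, among them Avp, Oxt, Pmch and Otp, all had a median of at least 1 CPM in the hypothalamus, where they summed to between 194.8 and 1550 CPM, against 5.11 to 12.2 CPM in the prefrontal cortex and 7.91 to 102.5 CPM in the hippocampus. The 6 cortex markers were highest in the prefrontal cortex, at 556 to 909 CPM, against 98.3 to 181 CPM in the hypothalamus and 280.1 to 424 CPM in the hippocampus. The 6 hippocampus markers summed to 262 to 498 CPM in the hippocampus and 97.0 to 245 CPM in the prefrontal cortex, but to 184 to 320.2 CPM in the hypothalamus, so that the hypothalamus and the hippocampus overlapped on this sum. The hypothalamus punches also held signal of neighbouring tissue that varied between animals. The 6 striatum markers summed there to 308 to 1165 CPM, against 150 to 714 CPM in the prefrontal cortex and 105 to 284 CPM in the hippocampus. On other markers, 2 hypothalamus libraries of males with small network sizes stood apart. Animal 6 had 755 CPM of thalamus markers against at most 299 CPM in the other hypothalamus libraries, and animal 10 had 18.4 CPM of lateral hypothalamus markers against at least 80.7 CPM. Total counts lay between 33711824 and 81865801 per library, with a median of 44778419.

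Because Greb1 was the member with a sex difference, and because the DNA motif of oestrogen receptors can be searched for directly, the promoters of the 7 genes were examined. RefSeq gave 11 promoters for them on GRCm38.p6, each running from 250 bases before to 50 bases after a start site. The palindrome to which oestrogen receptors bind as pairs, GGTCA and TGACC with any 3 bases between them, was in 23 of 32851 promoters of all genes (0.07%), on either strand, and in none of the 11. Its single arm AGGTCA, which other nuclear receptors also bind, was in 5340 of all promoters (16.3%) and in 1 promoter each of Greb1 and Cyp19a1. Both are shown 5′ to 3′ on the strand of the gene, with the 6 bases of the arm, read here as TGACCT, in capitals.
Greb1 promoter, chr12:16800837-16801136, minus strand: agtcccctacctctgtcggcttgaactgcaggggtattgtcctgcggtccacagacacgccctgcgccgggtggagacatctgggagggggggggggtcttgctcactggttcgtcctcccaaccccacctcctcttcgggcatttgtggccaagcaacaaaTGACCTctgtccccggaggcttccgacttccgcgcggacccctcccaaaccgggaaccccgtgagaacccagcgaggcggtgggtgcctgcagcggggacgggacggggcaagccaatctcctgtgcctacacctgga
Cyp19a1 promoter, chr9:54268115-54268414, minus strand: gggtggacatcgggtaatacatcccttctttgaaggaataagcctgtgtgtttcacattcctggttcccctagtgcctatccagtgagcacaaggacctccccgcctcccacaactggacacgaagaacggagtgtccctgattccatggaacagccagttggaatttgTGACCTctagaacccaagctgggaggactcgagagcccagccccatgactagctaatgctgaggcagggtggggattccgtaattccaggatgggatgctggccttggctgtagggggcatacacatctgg
In the Greb1 promoter the arm started 88 bases before the start site, and in the Cyp19a1 promoter 81 bases before it. The Greb1 promoter had 65.3% G and C and 19 CG pairs, against medians of 52.7% and 7 over all promoters. The motif ACANNNTGT, a loose form of the element of androgen and progesterone receptors, was in 2249 of all promoters (6.85%), and among these were a further promoter of Greb1 and a further promoter of Cyp19a1. A motif found in this way is a description of the letters and says nothing on whether a receptor binds there.

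Among the 7 members, only Esr1 and Esr2 separated the hypothalamus from both other regions without overlap. Esr1 (ENSMUSG00000019768, GRCm38 chr10:4611593-5005614, plus strand) was at 8.93 CPM in the lowest hypothalamus library, 14.2 in the median and 24.2 in the highest, against 2.09, 2.75 and 6.41 CPM in the prefrontal cortex and 2.26, 4.10 and 5.38 CPM in the hippocampus. The hypothalamus libraries thus did not overlap with those of the other regions, and Esr1 was higher in the hypothalamus in 28 of 28 animals. Esr2 (ENSMUSG00000021055, chr12:76120419-76177259, minus strand), the gene of oestrogen receptor β, was at 0.879, 1.46 and 2.06 CPM in the hypothalamus against 0.0932, 0.228 and 0.667 in the prefrontal cortex and 0.129, 0.433 and 0.713 in the hippocampus. It too was higher in the hypothalamus in 28 of 28 animals, with no overlap. How many of all genes separate in this way, here or between the other regions, was not counted. In the bulk punch, fewer cells with a transcript and less transcript per cell cannot be told apart.

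Tests between regions used edgeR's quasi-likelihood test over all genes with the animal as a block and Benjamini-Hochberg adjustment. All 6 members kept by the filter on low counts were called between the hypothalamus and the prefrontal cortex, where 81.3% of all genes were, 5 of 6 between the hypothalamus and the hippocampus (76.4% of all genes), and all 6 between the prefrontal cortex and the hippocampus (72% of all genes). With such backgrounds, passing the test says little of these genes, and the sizes carry the description. For Esr1 the log2 fold change of the hypothalamus was 2.26 (SE 0.08) relative to the prefrontal cortex and 1.83 (SE 0.08) relative to the hippocampus. For Esr2 it was 2.56 (SE 0.12) and 1.70 (SE 0.12). By the p of this test, Esr1 ranked 1251 and Esr2 2341 of 18769 genes relative to the prefrontal cortex. Relative to the hippocampus they ranked 845 and 2474. Between the other regions both receptor genes were lower in the prefrontal cortex than in the hippocampus, by a log2 fold change of -0.43 (SE 0.08) for Esr1 and -0.87 (SE 0.13) for Esr2. These values are relative to the bulk of the genes, which TMM scaling centres near 0.

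The progesterone receptor gene ran the other way. Pgr (ENSMUSG00000031870, chr9:8899833-8968611, plus strand) was at 39.3, 45.9 and 57.0 CPM (lowest, median, highest) in the prefrontal cortex, 29.9, 36.4 and 42.0 CPM in the hippocampus and 21.9, 31.0 and 40.3 CPM in the hypothalamus. It was lower in the hypothalamus than in the prefrontal cortex in 28 of 28 animals, and lower than in the hippocampus in 27 of 28. The log2 fold change of the hypothalamus was -0.59 (SE 0.03) relative to the prefrontal cortex and -0.25 (SE 0.03) relative to the hippocampus. Per kilobase of exon, the scale on which genes can be set beside each other, mean levels in the hypothalamus were 3.57 CPM per kb for Pgr, 1.85 for Srd5a1, 1.42 for Gper1, 1.08 for Esr1, 0.533 for Greb1 and 0.429 for Esr2. In the prefrontal cortex the same means were 5.38 for Pgr, 1.79 for Gper1, 1.57 for Srd5a1, 0.629 for Greb1, 0.225 for Esr1 and 0.0739 for Esr2.

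Aromatase transcripts were close to the detection limit in these punches. Cyp19a1 (ENSMUSG00000032274, chr9:54165937-54268110, minus strand) had between 5 and 37 counts per hypothalamus library, which is 0.123 CPM in the lowest, 0.310 in the median and 0.864 in the highest. In the prefrontal cortex 8 of 29 libraries had no count, with a highest value of 0.154 CPM, and in the hippocampus 5 of 29 had none, with a highest value of 0.177 CPM. In libraries without a count, the limit of 3 counts that a count of 0 allows is, per total counts without the TMM factors, 0.0505 to 0.0800 CPM in the prefrontal cortex and 0.0575 to 0.0813 CPM in the hippocampus. Summed over all libraries of a region, on the same scale, Cyp19a1 came to 0.350 CPM in the hypothalamus (95% exact Poisson interval 0.318 to 0.385), 0.0501 in the prefrontal cortex (0.0391 to 0.0632) and 0.0575 in the hippocampus (0.0448 to 0.0726), intervals that cover counting error only. Its level was higher in the hypothalamus than in the prefrontal cortex and than in the hippocampus in 28 of 28 animals. The filter on low counts removed it from the fit between regions, so no fold change is given for it there. With all genes that had a count kept in that fit, all 7 members were called between the hypothalamus and the prefrontal cortex. Over the alternatives to that fit, 14363 to 17540 genes were called in this comparison, so the call is no trait of the members.

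Srd5a1 and Gper1 were the most even members across regions. Srd5a1 (ENSMUSG00000021594, chr13:69573449-69611442, minus strand) was at 3.18, 4.64 and 5.78 CPM in the prefrontal cortex, 3.76, 5.39 and 6.61 CPM in the hypothalamus and 4.64, 6.19 and 8.02 CPM in the hippocampus. It was higher in the hippocampus than in the prefrontal cortex in 29 of 29 animals, with a log2 fold change of -0.45 (SE 0.04) for the prefrontal cortex. A small gene on the same strand, Gm17108, shares 476 exon bases with Srd5a1 and had a median of 19 counts. Gper1 (ENSMUSG00000053647, chr5:139423151-139427800, plus strand), the gene of a G protein-coupled oestrogen receptor, was at 2.82, 4.48 and 6.97 CPM in the prefrontal cortex, 2.43, 3.65 and 6.55 CPM in the hypothalamus and 2.82, 3.54 and 4.60 CPM in the hippocampus. Its log2 fold change between the hypothalamus and the hippocampus was 0.01 (SE 0.05, adjusted p = 0.875 by edgeR, 95% interval -0.09 to 0.11), with 14 of 28 animals higher in the hypothalamus.

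Greb1 (ENSMUSG00000036523, chr12:16670615-16800886, minus strand) was lowest in the hippocampus, at 1.26, 2.28 and 3.55 CPM, and did not overlap there with the prefrontal cortex, at 3.86, 5.99 and 8.01 CPM. In the hypothalamus it was at 2.97, 4.48 and 9.04 CPM, with a mean of 5.11 ± 1.77 CPM (SD, n = 28). An antisense gene, Gm48140, shares 736 exon bases with Greb1 and is not among the counted genes. Since the strand setting of the counting is not given, any reads of it in the shared bases cannot be told apart from those of Greb1. Greb1 was higher in the hypothalamus than in the hippocampus in 28 of 28 animals, by a log2 fold change of 1.05 (SE 0.09). Relative to the prefrontal cortex only 10 of 28 animals had the higher level in the hypothalamus, and the log2 fold change was -0.27 (SE 0.08, adjusted p = 0.00312 by edgeR).

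**Figure D1:**
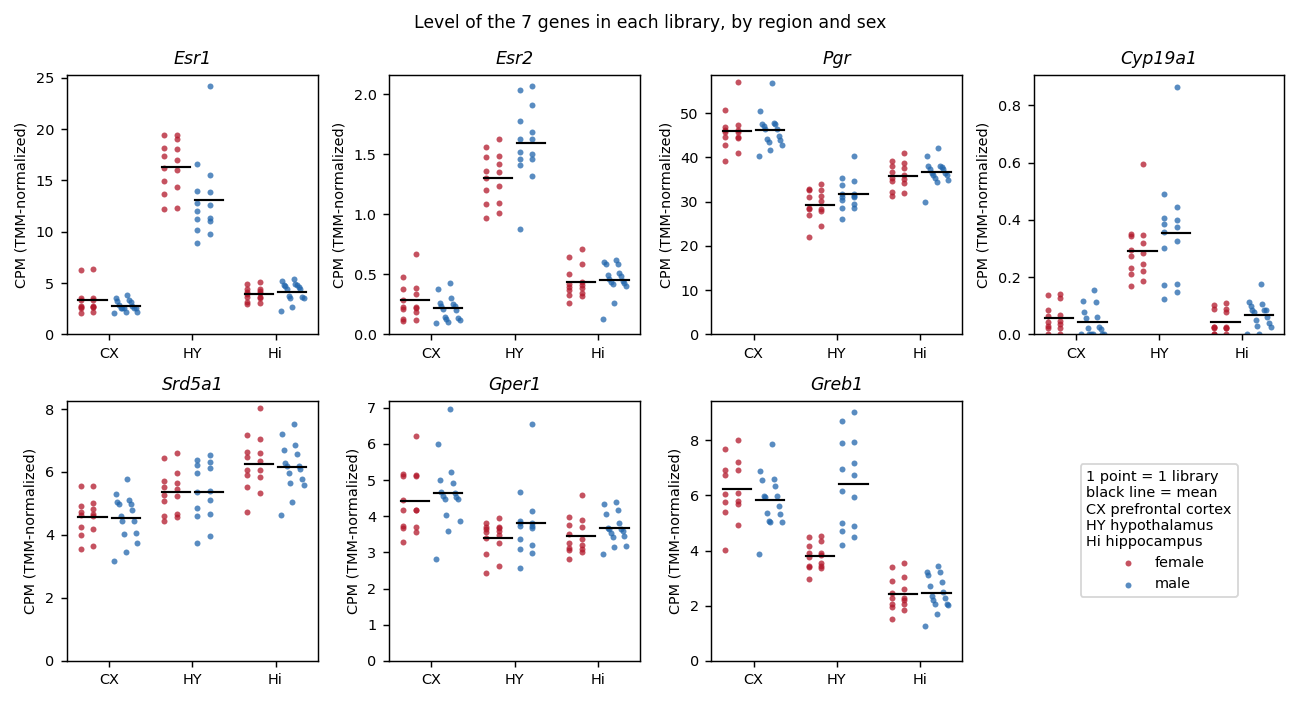
Normalised level (CPM) of each of the 7 genes in the prefrontal cortex (CX), hypothalamus (HY) and hippocampus (Hi), with 1 point per library, red for females and blue for males, and a black line at the mean of each sex. Esr1 and Esr2 in HY lie above all libraries of the other regions, Pgr is lowest in HY, and in HY the male points of Greb1 lie mostly above those of females.

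The other genes of the steroid pathway were taken from 4 lists. Between the hypothalamus and the prefrontal cortex 42.2% of all genes were called higher in the hypothalamus and 39.1% lower. Of 18 tested genes on a list of sexually dimorphic or steroid-responsive hypothalamic genes, 16 were higher and 1 lower in the hypothalamus than in the prefrontal cortex, with a median log2 fold change of 4.47. This list was made of hypothalamic genes, so its higher level in the hypothalamus follows from that choice and is no result on steroids. The genes with the smallest p on it were Irs4 at 7.24 (SE 0.12), Sytl4 at 5.07 (SE 0.09) and Cckar at 7.87 (SE 0.14). Of 11 other steroid receptors and binding proteins 4 were higher, 4 lower and 3 not called, led by the membrane progestin receptor gene Paqr6 at 2.24 (SE 0.04), its relative Paqr9 at -0.74 (SE 0.02) and Pgrmc1 at 0.85 (SE 0.03). Of 20 genes of steroid synthesis and metabolism 10 were higher and 7 lower, among the latter Cyp11a1, which starts steroid synthesis from cholesterol, at -1.76 (SE 0.07), Sult2b1 at -1.82 (SE 0.08) and Srd5a3 at -0.67 (SE 0.03). Of 13 coregulators and chaperones of receptors 4 were higher and 8 lower, with a median log2 fold change of -0.18, led by Ncoa1, a coactivator, at -0.46 (SE 0.02), and by the corepressors Ncor1 at -0.53 (SE 0.03) and Nrip1 at -0.75 (SE 0.04).

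Relative to the hippocampus, 36.8% of all genes were called higher in the hypothalamus and 39.5% lower. Here 16 of the 18 hypothalamic genes were higher and 2 lower, with a median of 2.52, and 5 receptors were higher and 4 lower of 11. Of the synthesis genes 6 were higher and 11 lower of 20, and of the coregulators 5 were higher and 4 lower of 13. Cyp7b1, which clears hydroxylated steroids, was lower in the hypothalamus by a log2 fold change of -0.65 (SE 0.04), and it was also lower in the prefrontal cortex than in the hippocampus, by -0.65 (SE 0.04). Between the prefrontal cortex and the hippocampus 33.3% of all genes were called higher and 38.8% lower in the former. Here 3 hypothalamic genes were higher and 14 lower of 18, with Prlr, the prolactin receptor gene, at -3.58 (SE 0.13), and 10 of 13 coregulators were higher, led by Crebbp at 0.24 (SE 0.03). Among the receptors 7 were higher and 4 lower of 11, and among the synthesis genes 8 were higher and 7 lower of 20.

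Between the sexes, Greb1 in the hypothalamus stood out. Females had 2.97 CPM in the lowest library, 3.81 in the median and 4.54 in the highest, and males had 4.21, 6.46 and 9.04 CPM, so that 12 of 14 males were above all females and 11 of 14 females below all males. The mean was 3.80 ± 0.464 CPM in females and 6.42 ± 1.61 CPM in males (SD, n = 14 each). The log2 fold change of males relative to females was 0.75 (SE 0.10, 95% interval 0.54 to 0.96), a 1.68-fold higher level, with an adjusted p of 7.37e-05 by edgeR's quasi-likelihood test over all 18753 genes. A two-sided permutation test of the difference in means gave 1e-05, the smallest p that 100000 permutations can give. Greb1 was the only member called, and 22 of all genes tested (0.117%) were.

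Of these 22 genes, 10 lie on the X and 7 on the Y chromosome. The 5 on autosomes were Greb1, which had the smallest p among autosomal genes, and Ttyh1, Pisd-ps1, Cd93 and 2810429I04Rik, which are named after their values were seen. Cd93, a gene of endothelial cells, was higher in males by 0.53 (SE 0.11) on the log2 scale, and Ttyh1, a membrane protein gene of neurons and glia, by 0.23 (SE 0.04). The 4 endothelial markers summed to 91.7, 107 and 134 CPM (lowest, median, highest) in the hypothalamus of females and 102, 130 and 151 CPM in males. Of these, 3 of the 4 had an unadjusted p under 0.05, against 6.79% of all genes, and none an adjusted one. Their sum also had a higher median in males in the prefrontal cortex (164 against 141 CPM) and in the hippocampus (129 against 115 CPM). Thalamus markers in the hypothalamus had medians of 85.4 CPM in females and 134 CPM in males. The part of these shifts in the Greb1 difference was not tested. Leaving out animals 6 and 10, whose punches stood apart, gave a log2 fold change of 0.78 (adjusted p = 6.18e-05 by edgeR). That fit was chosen after seeing the data and does not address the shifts of the endothelial and thalamus sums.

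The difference was present at both network sizes in direction, with unequal strength of evidence. Among animals with large networks, females had 3.38, 3.84 and 4.48 CPM and males 4.90, 7.18 and 9.04 CPM, without overlap. Among those with small networks, females had 2.97, 3.45 and 4.54 CPM and males 4.21, 5.95 and 7.94 CPM, with overlap. How many of all genes separate the sexes in this way, here or over both network sizes, was not counted. The log2 fold change was 0.87 (adjusted p = 0.00286) for large and 0.64 (adjusted p = 0.124) for small networks by edgeR, so that the call was lost in the latter. The 2 values were not shown to differ, since the test of sex by network size gave 0.23 (SE 0.20, adjusted p = 0.872).

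**Figure D2:**
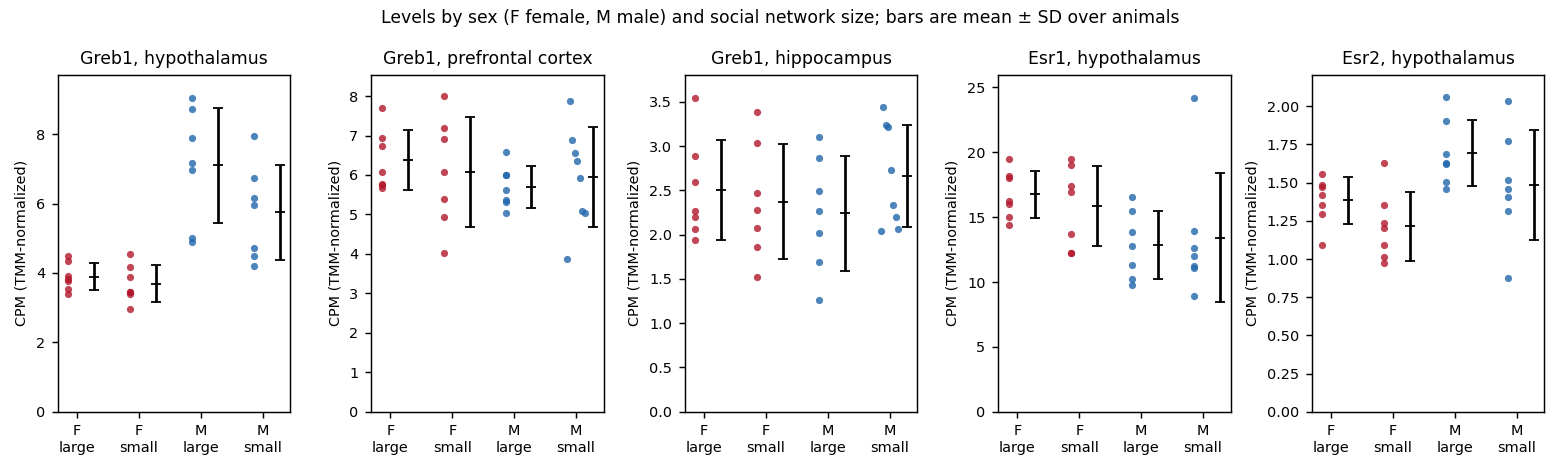
Levels (CPM) of Greb1 in 3 regions and of Esr1 and Esr2 in the hypothalamus, by sex (F, M) and social network size, with 1 point per animal and bars for the mean ± SD. For Greb1 the male groups exceed the female groups in the hypothalamus, with medians of 7.18 and 5.95 CPM against 3.84 and 3.45 CPM, and not in the other regions.

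In the other regions Greb1 did not follow sex. In the prefrontal cortex, females had 4.03, 6.07 and 8.01 CPM and males 3.86, 5.94 and 7.88 CPM, a log2 fold change of -0.10 (SE 0.09, adjusted p = 0.999 by edgeR, 95% interval -0.29 to 0.09). In the hippocampus, females had 1.52, 2.28 and 3.55 CPM and males 1.26, 2.34 and 3.45 CPM, a log2 fold change of -0.002 (SE 0.13, adjusted p = 0.998, 95% interval -0.27 to 0.27). No member was called in either region, where 0.0976% and 0.102% of all genes were. The sex difference itself was compared between regions with the animal as a block. For Greb1 it was larger in the hypothalamus than in the prefrontal cortex by 0.83 (SE 0.13, adjusted p = 0.000321 by edgeR), the only one of 19312 genes called (0.00518%). It was larger than in the hippocampus by 0.73 (SE 0.13, adjusted p = 0.02), where 2 genes were called (0.0104%), the other being Otp. Otp is 1 of the 9 hypothalamus markers, which in the hippocampus summed to 7.91, 12.6 and 26.7 CPM in females. In males they summed there to 8.59, 14.8 and 102.5 CPM. Of the 9, 5 had an unadjusted p under 0.05 by edgeR between the sexes there, against 5.99% of all genes, and none was called. The part of this punch content in the sex differences of the hippocampus was not tested. Between the prefrontal cortex and the hippocampus the sex difference of Greb1 differed by -0.10 (SE 0.13, adjusted p = 0.997). No gene was called in that comparison (0%), while 791 genes had an unadjusted p under 0.05.

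The oestrogen receptor genes of the hypothalamus leaned in opposite directions between the sexes without passing the test. Esr1 was at 12.2, 16.6 and 19.5 CPM in females and 8.93, 12.3 and 24.2 CPM in males. Among males, 7 of 14 lay below all females and 1, animal 10, above all. The log2 fold change was -0.31 (SE 0.11, 95% interval -0.55 to -0.08), with an unadjusted p of 0.0104 and an adjusted p of 0.587 by edgeR. Without animal 10 it was -0.41 (adjusted p = 0.0784), and without animals 6 and 10 it was -0.38 (adjusted p = 0.161). The 4 ventromedial nucleus markers summed to 53.8, 69.3 and 78.3 CPM in females and 32.7, 56.7 and 85.8 CPM in males, so that they too had a lower median in males.

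Esr2 was at 0.971, 1.33 and 1.63 CPM in the hypothalamus of females and 0.879, 1.57 and 2.06 CPM in that of males, with 5 of 14 males above all females. Its log2 fold change was 0.28 (SE 0.10, 95% interval 0.07 to 0.50), with an unadjusted p of 0.0108 and an adjusted p of 0.592 by edgeR. In the other regions the receptor genes had log2 fold changes of males relative to females of -0.22 (SE 0.13) for Esr1 and -0.33 (SE 0.25) for Esr2 in the prefrontal cortex, and of 0.08 (SE 0.11) and 0.06 (SE 0.17) in the hippocampus. Between the hypothalamus and the prefrontal cortex the sex difference of Esr2 differed by 0.63 (SE 0.24, unadjusted p = 0.0126, adjusted p = 0.999), and between the hypothalamus and the hippocampus that of Esr1 differed by -0.42 (SE 0.15, unadjusted p = 0.00797, adjusted p = 0.987).

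Pgr, Cyp19a1, Srd5a1 and Gper1 had no difference between the sexes that passed the test. In the hypothalamus the log2 fold changes were 0.11 (SE 0.06) for Pgr, 0.28 (SE 0.23) for Cyp19a1, 0.002 (SE 0.08) for Srd5a1 and 0.15 (SE 0.10) for Gper1. For Srd5a1 the interval ran from -0.17 to 0.18, while for Cyp19a1, with its few counts, it ran from -0.20 to 0.76. Cyp19a1 was at 0.169, 0.280 and 0.594 CPM in females and 0.123, 0.367 and 0.864 CPM in males. Of the 60 pathway genes on the 4 lists that were tested in the hypothalamus, none was called between the sexes. The lowest adjusted p among them was that of Nrip1, a corepressor of nuclear receptors, at 0.419, with a log2 fold change of 0.23 (SE 0.07).

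**Figure D3:**
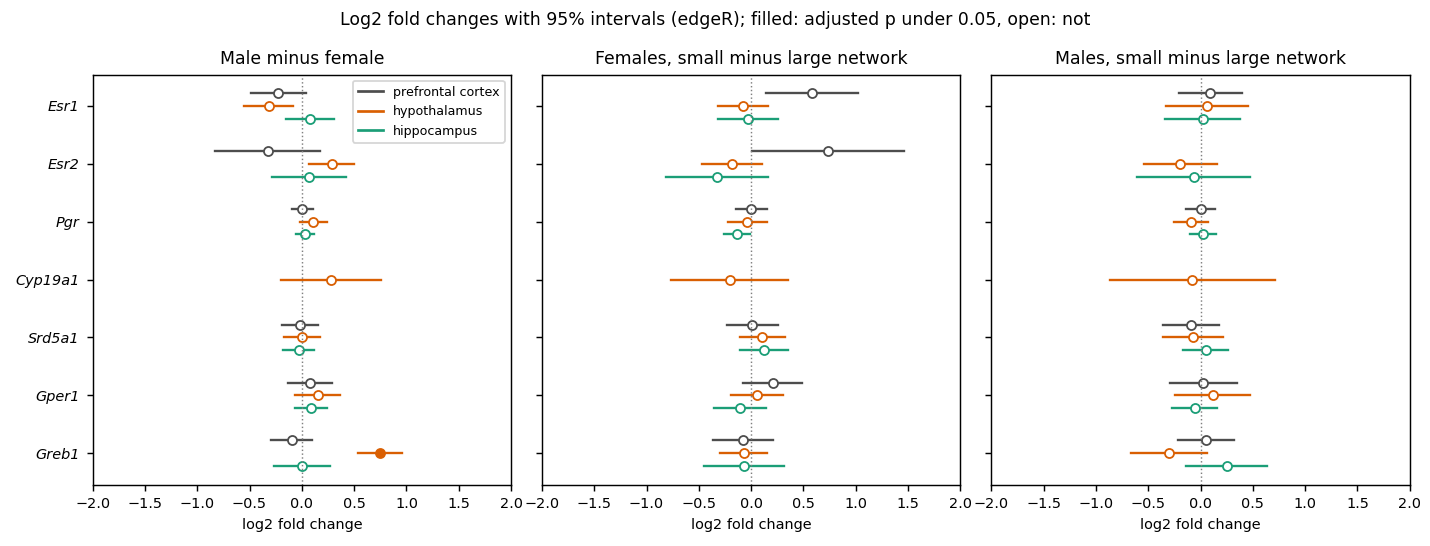
Log2 fold changes with 95% intervals from edgeR for males relative to females and for small relative to large social network size in females and in males, by gene and region (grey prefrontal cortex, orange hypothalamus, green hippocampus). The only filled point, for an adjusted p under 0.05, is Greb1 in the hypothalamus of males relative to females at 0.75.

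Social network size was the contrast for which the animals had been sampled, and no member was called for it in any sex or region. In females, 0.0113% of all genes were called in the prefrontal cortex, 0.00552% of those in the hypothalamus and 0% of those in the hippocampus, and in males 0% in each region. At an unadjusted p under 0.05, 2 of 6 members passed in the prefrontal cortex of females (9.59% of all genes), none of 7 in their hypothalamus (7.39%) and 1 of 6 in their hippocampus (12.2%). In males no member passed, of 5 tested in the prefrontal cortex (2.52% of all genes), 7 tested in the hypothalamus (2.9%) and 6 tested in the hippocampus (3.88%). The DESeq2 Wald test called 0 members in every one of these comparisons, and 74, 43 and 95 genes in the 3 regions of females.

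The 2 members in the prefrontal cortex of females were the oestrogen receptor genes. Esr1 was at 2.55, 3.37 and 6.41 CPM in females with small and 2.09, 2.69 and 3.56 CPM in females with large network sizes, with 3 of 7 of the former above all of the latter. The log2 fold change of small relative to large network size was 0.58 (SE 0.21, 95% interval 0.14 to 1.02), with an unadjusted p of 0.0129 and an adjusted p of 0.477 by edgeR. Leaving out each female in turn gave values between 0.43 and 0.68. In these punches the 6 hippocampus markers summed to 104, 128 and 245 CPM with small and 97.0, 110 and 124 CPM with large network sizes. The part of this punch content in the Esr1 and Esr2 values was not tested. In males Esr1 was at 2.12, 2.85 and 3.82 CPM with small and 2.20, 2.62 and 3.34 CPM with large network sizes, a log2 fold change of 0.09 (SE 0.14). The test of sex by network size gave 0.49 (SE 0.26, unadjusted p = 0.0622, adjusted p = 0.997), in a comparison where 0% of all genes were called and 769 had an unadjusted p under 0.05.

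Esr2 in the prefrontal cortex of females rested on 4 to 27 counts per library. It was at 0.119, 0.340 and 0.667 CPM with small and 0.112, 0.224 and 0.382 CPM with large network sizes, a log2 fold change of 0.74 (SE 0.34, 95% interval 0.01 to 1.46, unadjusted p = 0.0466, adjusted p = 0.517 by edgeR). In males it was at 0.0932, 0.226 and 0.382 CPM with small and 0.124, 0.202 and 0.431 CPM with large network sizes, and was not tested there because of its low counts. For Pgr in the hippocampus of females the values were 31.3, 34.7 and 37.6 CPM with small and 34.3, 38.2 and 41.0 CPM with large network sizes. This is a log2 fold change of -0.13 (SE 0.06, unadjusted p = 0.0343, adjusted p = 0.372 by edgeR), or an interval of -0.26 to -0.01, and the groups overlapped.

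**Figure D4:**
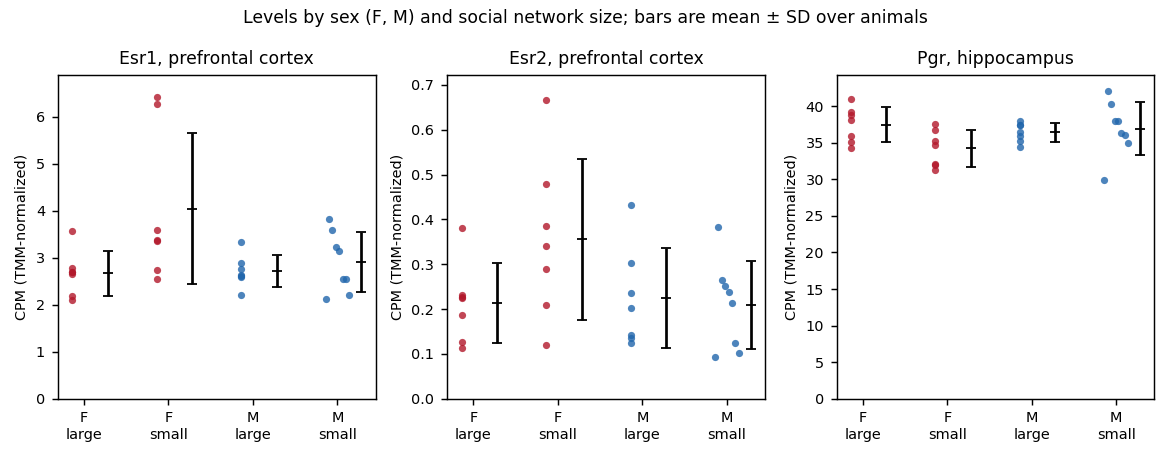
Levels (CPM) of Esr1 and Esr2 in the prefrontal cortex and of Pgr in the hippocampus by sex (F, M) and social network size, with 1 point per animal and bars for the mean ± SD. The small-network females of Esr1 spread from 2.55 to 6.41 CPM and overlap with the large-network females at 2.09 to 3.56 CPM, as the groups of the other panels do.

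In the hypothalamus no member was called by network size, with intervals that were wide for some. In females the log2 fold changes of the 7 members lay between -0.21 (SE 0.26) for Cyp19a1 and 0.11 (SE 0.10) for Srd5a1, with -0.08 (SE 0.11) for Esr1, -0.19 (SE 0.14) for Esr2 and -0.07 (SE 0.11) for Greb1. In males they lay between -0.30 (SE 0.17, unadjusted p = 0.1) for Greb1 and 0.12 (SE 0.17) for Gper1, and the 95% interval ran from -0.66 to 0.06 for Greb1 and from -0.87 to 0.71 for Cyp19a1. Over both sexes, with 3 genes called in the prefrontal cortex (0.0163%) and 0% of genes in hypothalamus and hippocampus, where 660 and 1819 genes had an unadjusted p under 0.05, no member was called. Esr1 in the prefrontal cortex had the smallest p among them, with a log2 fold change of 0.34 (SE 0.13, unadjusted p = 0.0122, adjusted p = 0.575). The test of sex by network size called 0% of genes in the hypothalamus and in the hippocampus as well, where 1152 and 1371 genes had an unadjusted p under 0.05. None of the genes on the 4 pathway lists was called by network size in any comparison.

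Between animals, the hypothalamic level of Esr1 moved with the markers of the ventromedial nucleus and of the preoptic area. The ventromedial sum is not particular to that nucleus. Its median was 67.1 CPM in the hypothalamus, 25.7 CPM in the prefrontal cortex and 17.9 CPM in the hippocampus. Over 28 animals, log2 Esr1 had a Pearson r of 0.731 with the summed ventromedial nucleus markers (Spearman's rho 0.770, adjusted permutation p = 0.00028 and 0.00056) and of 0.634 with the preoptic markers (rho 0.664, adjusted permutation p = 0.00635 and 0.00411). With the arcuate nucleus markers r was 0.294 (rho 0.388, adjusted permutation p = 0.452 and 0.205), which did not pass. With the thalamus markers r was -0.730 (rho -0.712, adjusted permutation p = 0.00028 and 0.00112). The ventromedial, preoptic and thalamus sums gave the 3 of 56 relations between members and marker sums that passed the correction of Pearson's r. Without the 2 animals farthest from the median of the marker sum, r was 0.656 for the ventromedial, 0.552 for the preoptic and -0.624 for the thalamus markers, and after subtracting the mean of each sex and network size it was 0.745, 0.671 and -0.702 in the same order. Animal 10 lay off the line of the preoptic markers, with 24.2 CPM of Esr1 at 44.2 CPM of markers. Greb1, the member with the sex difference, had an r of -0.349 with the ventromedial markers (adjusted permutation p = 0.288) and of 0.256 with the thalamus markers (adjusted permutation p = 0.584).

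**Figure D5:**
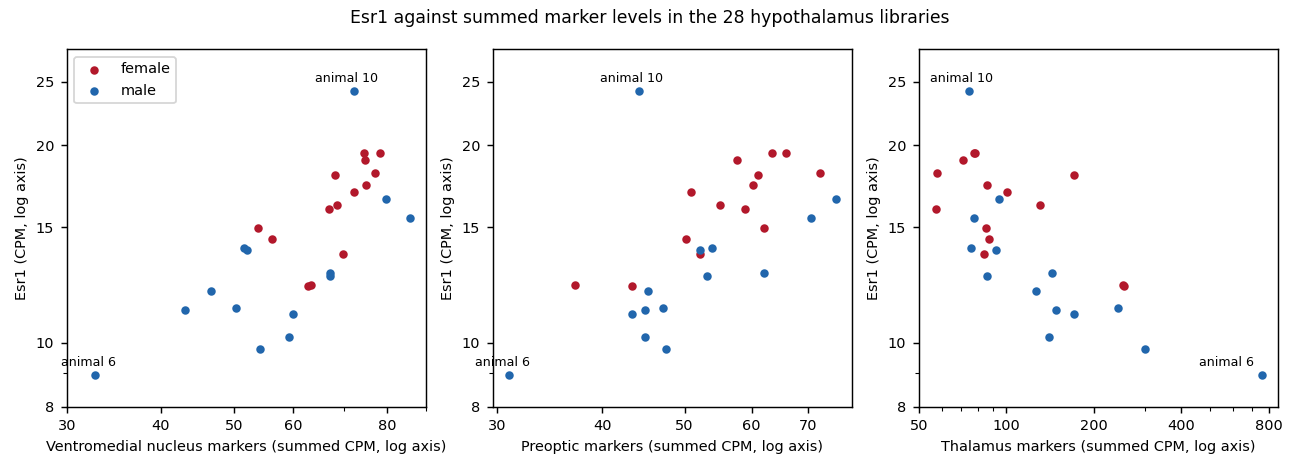
Level of Esr1 (CPM, log axis) in each of the 28 hypothalamus libraries against the summed CPM (log axis) of markers of the ventromedial nucleus, the preoptic area and the thalamus, with red points for females and blue points for males. Esr1 rises with the first and the second sum (r 0.731 and 0.634) and falls with the thalamus sum (r -0.730), with animals 6 and 10 labelled.

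None of the 21 pairs of members was related in the hypothalamus after correction of Pearson's r, over 28 animals. Srd5a1 and Gper1 had an r of 0.362 (adjusted permutation p = 0.241) and a rho of 0.631 (adjusted permutation p = 0.0084), so that ranks and values differed. The same member in 2 regions of an animal was related in 5 of 21 cases. How often other genes are related in this way was not examined, so the count is not a trait of the members. For Gper1 in the hypothalamus and the prefrontal cortex r was 0.693 (rho 0.593, adjusted permutation p = 0.00063 and 0.0196), and 0.643 without the 2 farthest animals. For Srd5a1 it was 0.634 between hypothalamus and hippocampus, 0.571 between prefrontal cortex and hippocampus and 0.545 between hypothalamus and prefrontal cortex, falling to 0.484, 0.388 and 0.313 without the 2 farthest animals, so that these relations rested in part on them. For Greb1 in the prefrontal cortex and the hippocampus r was 0.476, and 0.596 without the 2 farthest animals. Libraries of an animal may share more than its biology, such as the day of extraction, which the labels do not give.

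The genes most like each member over the 28 hypothalamus libraries were found among 15040 genes with a median of at least 1 CPM, as a description without a test. For Esr1 they were Calcr, the calcitonin receptor gene and 1 of the 3 preoptic markers, with an r of 0.883, Gabrq (0.863) and Gpc3 (0.852). For Greb1 they were Gm29650 (0.794), Eif2s3y (0.793) and Uty (0.791), and after subtracting the group means these fell to 0.272, 0.0777 and 0.0316. Eif2s3y and Uty were among the Y-linked genes used to check the sex labels. For Pgr they were Ccdc186 (0.858), Soga3 (0.855) and Osbpl6 (0.839). For Esr2 they were Gm5499 (0.814), Scg3 (0.711) and Enpep (0.67), for Gper1 Dyrk1a (0.788), Abtb2 (0.752) and Nsun2 (0.746), for Srd5a1 Tmem117 (0.792), Nup133 (0.615) and Actg1 (0.615), and for Cyp19a1 Bicdl1 (0.633), Pdk4 (0.617) and Txnrd2 (0.609). The 28 points share sex, punch content and depth.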

How the data were processed

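RNA-seq counts of 86 libraries were analysed. Per the methods, the authors mapped paired-end reads with STAR to GRCm38, counted reads per gene with HTSeq, and deposited these counts without normalization. The annotation release and the strand setting of the counting are not given in the sources used here. Symbols, positions and exon lengths came from GENCODE vM21 (34490 of 35275 genes matched), promoters from RefSeq. CPM were computed with TMM factors over all libraries. Groups were compared with edgeR 4.0.16 in R 4.3.3 (quasi-likelihood test, TMM, filterByExpr at its count of 10, total of 15 and proportion of 0.7) and Benjamini-Hochberg adjustment with a threshold of 0.05. SE were taken from the F statistics. Social network size was tested within each sex and region. Sex, both sexes together and sex by network size were tested in a fit of the 4 groups of a region, and regions with the animal as a block. The animal number in the titles pairs punches of the same brain. Single values were compared by permutation, exact for 7 or 8 animals a group and with 100000 permutations otherwise (Python 3.11.15, scipy 1.17.1), and correlations used log2(CPM + 0.1). With simulated counts and a log2 change of 0.75 in 200 genes, edgeR recovered 99% of them for sex in the hypothalamus. It recovered 91.5% for network size in females and 55% for sex by network size, also in the hypothalamus. The simulation gave every gene the same dispersion, so these rates do not give the power for a member that varies more. The members and the lists were chosen with earlier results of these data known. Named genes were the 7 members in every comparison, from each list up to 3 genes with the smallest p among those called, and the 3 genes most like each member. The list genes Hsd17b8, Sts and Kiss1 were not analysed here. Alternatives were DESeq2 1.42.0, its size factors, all genes with a count, each network size alone, fits without the block or of all groups, and each animal left out. Leaving out hypothalamus libraries of animals 6 and 10 and testing the sex difference between regions were added after seeing the data. Comparing the sexes within each network size was added then too.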

Additional observations from a re-analysis of the deposited data

Results flagged for a closer look

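Of 84 groups of animals, by member, region, sex and network size, 6 held an animal set apart from the rest of its group by Dixon's test. Chance marks about 1 in 20 groups. Animal 10, a male with a small network size, had 24.2 CPM of Esr1 in the hypothalamus, where the next animal of its group had 13.9, and 40.3 CPM of Pgr, where the next had 31.1. The hypothalamus punch of this animal also had the lowest sum of lateral hypothalamus markers (18.4 CPM) and of hypothalamus markers (194.8 CPM). Animal 6 of the same group had 0.129 CPM of Esr2 in the hippocampus, with 0.401 CPM in the next. Cyp19a1 in the hypothalamus was at 0.594 CPM in animal 1, a female with a large network size (next 0.345), and at 0.864 CPM in animal 7, a male with a small network size (next 0.399). Gper1 was at 4.33 CPM in the hippocampus of animal 30, a male with a large network size (next 3.82).

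The difference between the sexes in Greb1 was not the same in all regions. On the log2 scale it was larger in the hypothalamus than in the hippocampus by 0.73 (SE 0.13) and than in the prefrontal cortex by 0.83 (SE 0.13), with adjusted p of 0.02 and 0.000321 by edgeR's quasi-likelihood test with the animal as a block. It did not separate the prefrontal cortex from the hippocampus.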

How the results depend on the processing

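Between regions, the DESeq2 Wald test and the edgeR fit with all genes that had a count each called more members. For hypothalamus against prefrontal cortex they called 7 in place of 6, and for hypothalamus against hippocampus 6 in place of 5. Over all alternatives, 14363 to 17540 and 13192 to 15993 genes were called in these comparisons. By sex and network size, the counts of members called kept their values under the alternatives run, except for the call of Greb1 between the sexes in the hypothalamus, which was lost among animals with small networks alone (0 members called, log2 fold change 0.64, adjusted p = 0.124 by edgeR, with 7 animals a group). Over the 28 fits that left out an animal, this log2 fold change lay between 0.71 and 0.79 (adjusted p 1.72e-05 to 0.00024), and with the DESeq2 Wald test it was 0.75 (adjusted p = 7.64e-10). The sex difference of Greb1 between regions was 0.84 (hypothalamus minus prefrontal cortex) and 0.73 (minus hippocampus) with DESeq2's size factors, and 0.92 and 0.82 without the hypothalamus libraries of animals 6 and 10, which left 1 gene called in the latter comparison. Without the animal block, 14363, 13192 and 12255 genes were called between hypothalamus and prefrontal cortex, hypothalamus and hippocampus, and prefrontal cortex and hippocampus, with 6, 5 and 6 members among them, so that the pairing changed no call of a member. No paired analysis was possible for sex and network size because these groups share no animals. Of 133 results on single members, 40 changed sign under some alternative. In the fits reported above, all 40 had an adjusted p of at least 0.875 and a log2 fold change of at most 0.33 in size, and the sign printed for any of them is not stable to these settings.

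By network size in females, the number of genes called in the prefrontal cortex was 4 with the 4 groups in a single fit, 74 with the DESeq2 Wald test, 6 with all genes that had a count and 0 to 5 with each animal left out, and in the hypothalamus it was 0, 43, 3 and 0 to 14 under the same alternatives. In the hippocampus it was 95 with DESeq2 and 1 with all genes. In males, 1 and 2 genes were called in the prefrontal cortex with the single fit and with DESeq2 (0 to 1 with each animal left out), and 1 in the hypothalamus with DESeq2. Over both sexes DESeq2 called 22, 6 and 12 genes in prefrontal cortex, hypothalamus and hippocampus, all genes gave 1 in the hypothalamus and 1 in the hippocampus, leaving out animals 6 and 10 gave 1 in the hypothalamus, and each animal left out gave 3 to 7, 0 to 3 and 0 to 3. For sex by network size DESeq2 called 30 genes in the prefrontal cortex and 1 in the hippocampus, and each animal left out 0 to 1 in both. Between the sexes DESeq2 called 29 genes in the prefrontal cortex and 40 genes in the hypothalamus, and large networks alone gave 11 in the hippocampus. Of the 21 relations of a member between regions, 2 remained past the threshold without the 2 farthest animals. The cause of these shifts was not tested.

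In the hypothalamus, log2 fold changes with each animal left out crossed 0, for sex by network size -0.27 to 0.27 for Cyp19a1, -0.21 to 0.054 for Esr1, -0.092 to 0.088 for Esr2 and -0.14 to 0.090 for Gper1, for network size in females -0.29 to 0.034 for Cyp19a1, -0.0082 to 0.11 for Gper1 and -0.080 to 0.016 for Pgr, for network size in males -0.47 to 0.067 for Cyp19a1, -0.14 to 0.14 for Esr1 and -0.045 to 0.20 for Gper1, for network size in both sexes -0.11 to 0.032 for Esr1 and -0.021 to 0.044 for Srd5a1 and for sex -0.026 to 0.039 for Srd5a1. In the prefrontal cortex, log2 fold changes with each animal left out crossed 0, for network size in males -0.075 to 0.11 for Gper1, -0.015 to 0.12 for Greb1 and -0.043 to 0.029 for Pgr, for network size in both sexes -0.055 to 0.025 for Greb1 and -0.023 to 0.019 for Pgr, for sex -0.016 to 0.034 for Pgr and -0.051 to 0.012 for Srd5a1, for sex by network size -0.054 to 0.048 for Pgr and for network size in females -0.052 to 0.037 for Pgr and -0.043 to 0.059 for Srd5a1. In the hippocampus, log2 fold changes with each animal left out crossed 0, for sex by network size -0.13 to 0.050 for Esr1 and -0.10 to 0.017 for Gper1, for network size in both sexes -0.058 to 0.032 for Esr1, for network size in females -0.11 to 0.024 for Esr1 and -0.18 to 0.028 for Greb1, for network size in males -0.085 to 0.095 for Esr1, -0.17 to 0.075 for Esr2 and -0.0081 to 0.058 for Pgr and for sex -0.050 to 0.051 for Greb1 and -0.052 to 0.00039 for Srd5a1. With all genes that had a count, the sign turned to -0.0097 for Pgr (network size in females in the prefrontal cortex), to -0.0037 for Pgr (network size in both sexes in the prefrontal cortex), to -0.012 for Pgr (sex by network size in the prefrontal cortex). Without the hypothalamus libraries of animals 6 and 10, the sign turned to -0.077 for Esr1, 0.087 for Cyp19a1 and -0.14 for Gper1 (network size in males in the hypothalamus), to -0.016 for Srd5a1 (sex in the hypothalamus), to -0.0076 for Srd5a1 and -0.046 for Gper1 (network size in both sexes in the hypothalamus), to 0.19 for Gper1 (sex by network size in the hypothalamus), to -0.015 for Gper1 (hypothalamus relative to hippocampus). Among animals with small networks, the sign turned to -0.013 for Gper1 (sex in the prefrontal cortex), to -0.090 for Srd5a1 (sex in the hypothalamus), to 0.16 for Greb1 (sex in the hippocampus). Among animals with large networks, the sign turned to 0.023 for Esr1, 0.096 for Esr2 and 0.036 for Srd5a1 (sex in the prefrontal cortex), to -0.061 for Esr2, -0.041 for Pgr and 0.013 for Srd5a1 (sex in the hippocampus). With DESeq2's size factors, the sign turned to 0.0012 for Greb1 (sex in the hippocampus).

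Cyp19a1 at 5 to 37 counts in the hypothalamus and Esr2 at 4 to 27 counts in the prefrontal cortex are limited by depth.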
